A study of Homo sapiens with 32 samples.

Results

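Enzymes of families that conjugate, reduce, or oxidize androgens and other steroids were followed in LNCaP cells as a set of 9 genes. Several of them are known mainly for other substrates, as given with each gene below. The set held *UGT2B15*, *UGT2B17*, *UGT2B28*, *UGT2B11*, and *UGT2B10*, which encode UDP-glucuronosyltransferases, together with *SRD5A1* and *SRD5A3* of the steroid reductase family and the hydroxysteroid dehydrogenases *HSD17B4* and *HSD17B11*. The genes were taken by symbol from the deposited tables of counts and of length-normalized levels (TPM) and made up 9 of the 25498 genes listed. All 9 were among the 16995 genes tested, which were those that reached 5 counts in 3 or more libraries.

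LNCaP is an established, androgen-responsive line of prostate cancer cells grown from a lymph node metastasis. RNA was sequenced from 8 groups of these cells, with 4 libraries per group. One group was kept in RPMI-1640 medium with fetal bovine serum (FBS). The cells of the other groups were washed and placed in medium with charcoal-stripped serum (CSS), and on the next day they were left untreated or were given 100 ng/mL EGF or 100 ng/mL NRG-1 for 5 minutes, 1 hour, or 4 hours. EGF is a ligand of EGFR, and NRG-1 is a ligand of HER3 and HER4. Charcoal removes steroids along with other small lipophilic molecules, so that FBS and CSS differ in more than androgen, and the labels do not say whether the FBS group was also washed. Replicates 1 and 2 of every group belonged to batch 1 and replicates 3 and 4 to batch 2. The labels call them biological replicates without naming separate cultures, so P values measure the spread between these libraries, which may be technical. In bulk RNA, fewer cells that express a gene and less RNA per cell cannot be told apart.

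Testosterone is converted by steroid reductases such as *SRD5A1* to dihydrotestosterone, the most potent natural androgen. The UGT2B enzymes sit in the endoplasmic reticulum and transfer glucuronic acid from UDP-glucuronate to hydroxylated steroids, which turns androgens and their breakdown products into soluble conjugates that leave the cell. *UGT2B15* and *UGT2B17* are the main enzymes that do so in the prostate, and androgen is known to lower their expression in androgen-responsive prostate cells. Hydroxysteroid dehydrogenases interconvert the hydroxyl and keto forms of steroids and thereby set how strongly they bind their receptors.

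The 5 UGT2B genes are close paralogs. Promoters are shown for the 3 of them held by the RefSeq table used here, because these genes differed in their results below although their start sites lie in related sequence. They are the 250 bases before the start site on the coding strand in build GRCh38.p14, at chr4:68670653-68670902 (minus strand) for *UGT2B15*, chr4:69214749-69214998 (minus strand) for *UGT2B11*, and chr4:68815744-68815993 (plus strand) for *UGT2B10*. Capitals mark runs of at least 12 bases found in all 3 promoters.
*UGT2B15*: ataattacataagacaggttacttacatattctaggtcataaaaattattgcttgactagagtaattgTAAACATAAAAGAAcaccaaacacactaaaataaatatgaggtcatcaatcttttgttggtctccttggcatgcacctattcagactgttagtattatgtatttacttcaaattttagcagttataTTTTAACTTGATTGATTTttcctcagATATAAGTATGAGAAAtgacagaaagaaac
*UGT2B11*: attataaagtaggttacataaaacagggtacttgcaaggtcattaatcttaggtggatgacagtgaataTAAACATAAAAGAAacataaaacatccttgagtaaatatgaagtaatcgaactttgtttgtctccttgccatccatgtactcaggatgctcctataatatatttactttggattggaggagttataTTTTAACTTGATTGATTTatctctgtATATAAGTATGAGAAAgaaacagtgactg
*UGT2B10*: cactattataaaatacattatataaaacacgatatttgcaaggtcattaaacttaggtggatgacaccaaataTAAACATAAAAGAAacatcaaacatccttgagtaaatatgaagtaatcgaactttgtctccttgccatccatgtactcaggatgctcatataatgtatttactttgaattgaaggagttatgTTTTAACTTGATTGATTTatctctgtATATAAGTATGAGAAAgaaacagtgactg

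The 3 promoters shared 3 such runs, which covered 48 bases, and the longest run held 18 bases. In global alignments the promoters of *UGT2B11* and *UGT2B10* were 90.2% identical, whereas that of *UGT2B15* was 70.9% identical to *UGT2B11* and 68.7% identical to *UGT2B10*. Matches to the letters of 3 motifs on either strand are given for the 7 promoters of the set that the table held. The forkhead motif GTAAACA occurred once in *UGT2B15*, at position -183 from the start site, and in none of the other 6 promoters. It was present in 2.98% of all 35116 promoters of the table cut to the same length. In *UGT2B15* the letters TAAACA of this match lie in a run shared by all 3 UGT2B promoters. *UGT2B11* and *UGT2B10* have A in place of G before that run. The AP-1 motif TGANTCA occurred once in *SRD5A3*, at -168, against 6.57% of all promoters, and the HNF1 half-site GTTAAT, present in 6.23% of all promoters, occurred in none of the 7. These are matches of letters and not measured binding sites.

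Paralogs also share reads, which bears on every UGT2B value. In the longest protein-coding transcripts of GENCODE 44, the longest open reading frames of *UGT2B15* and *UGT2B17* were 96.5% identical. Those of *UGT2B28*, *UGT2B11*, and *UGT2B10* were 94.2% to 97% identical to each other and 84.1% to 85.6% identical to those of *UGT2B15* and *UGT2B17*. Of all windows of 100 bases in the *UGT2B15* transcript, 12.4% occurred letter for letter in a transcript of another UGT2B gene, and the share was 10.6% for *UGT2B17*, 3.34% for *UGT2B11*, 1.88% for *UGT2B10*, and 0.967% for *UGT2B28*. In windows of 50 bases the shares were 26.7%, 23.1%, 24.6%, 12.3%, and 23% in the same order. Counts were estimated by RSEM, which divides reads that fit several genes by likelihood, so that 138 of 160 UGT2B values were not whole numbers, against 5 of 128 values of the other 4 genes. Between *UGT2B15* and *UGT2B17*, and among the other 3 UGT2B genes, a part of each count is therefore an estimate of the split.

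Library totals lay between 63822654 and 92401724 expected counts. The identity of the cells was checked with markers. All 9 luminal prostate markers, among them *KLK3* (143.5 to 2824 TPM), had counts in all 32 libraries. Of 11 markers of other cell types, *COL1A2*, *DCN*, *KRT5*, *PECAM1*, *PTPRC*, and *TP63* never exceeded 0.04 TPM. Other markers of the list were not near 0, with 1.36 to 5.0 TPM for *COL1A1* and 0.7 to 3.1 TPM for *VWF*. *KRT14* reached 2.17 TPM and *ALB* 0.3 TPM. Of these 11, 6 were tested, and 1 was higher and 3 lower in FBS than in CSS, while 1 was higher and 1 lower after 4 hours of each ligand. The summed TPM of the 11 was 6.49 to 8.49 in FBS, 8.14 to 10.9 in CSS, 16.8 to 19.4 with EGF for 4 hours, and 9.95 to 14.9 with NRG-1 for 4 hours. *CD68*, which also encodes a lysosomal protein of many cell types, gave most of the highest sums, with 12.2 to 16.2 TPM after 4 hours of EGF against 3.22 to 3.98 TPM in CSS. The part of this change in the results below was not tested.

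Levels of the 9 genes can be compared with each other only in TPM, which accounts for transcript length. In CSS, *UGT2B17* was highest with 445 ± 31.8 TPM (mean ± SD, n = 4). *HSD17B4* followed with 218 ± 19.4 TPM and *UGT2B15* with 184 ± 44.9 TPM, and the libraries of these 2 genes overlapped. *SRD5A3* had 25.8 ± 0.438 TPM and *SRD5A1* 23.9 ± 1.52 TPM, without overlap in CSS. *UGT2B11* (6.83 ± 2.18 TPM), *UGT2B10* (4.51 ± 2.01 TPM), and *HSD17B11* (3.21 ± 0.951 TPM) formed a low group in which neighbors overlapped. *UGT2B28* was lowest with 0.673 ± 0.344 TPM, from 24 to 91.2 counts per library. *UGT2B15* and *UGT2B17* together made up 97.7% to 98.7% of the summed UGT2B level in CSS and 88.1% to 95.6% in FBS.

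For comparisons of 1 gene between groups, counts are given relative to the effective library size (CPM, with the TMM normalization of edgeR). Each member was tested on counts with this normalization and not on TPM, except where limma is named, because the median of 12758 expressed genes was shifted by -0.19 on the log2 scale in FBS against CSS in TPM and by 0.00 in CPM. The plot of CPM by group shows every library.

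**Figure D1:**
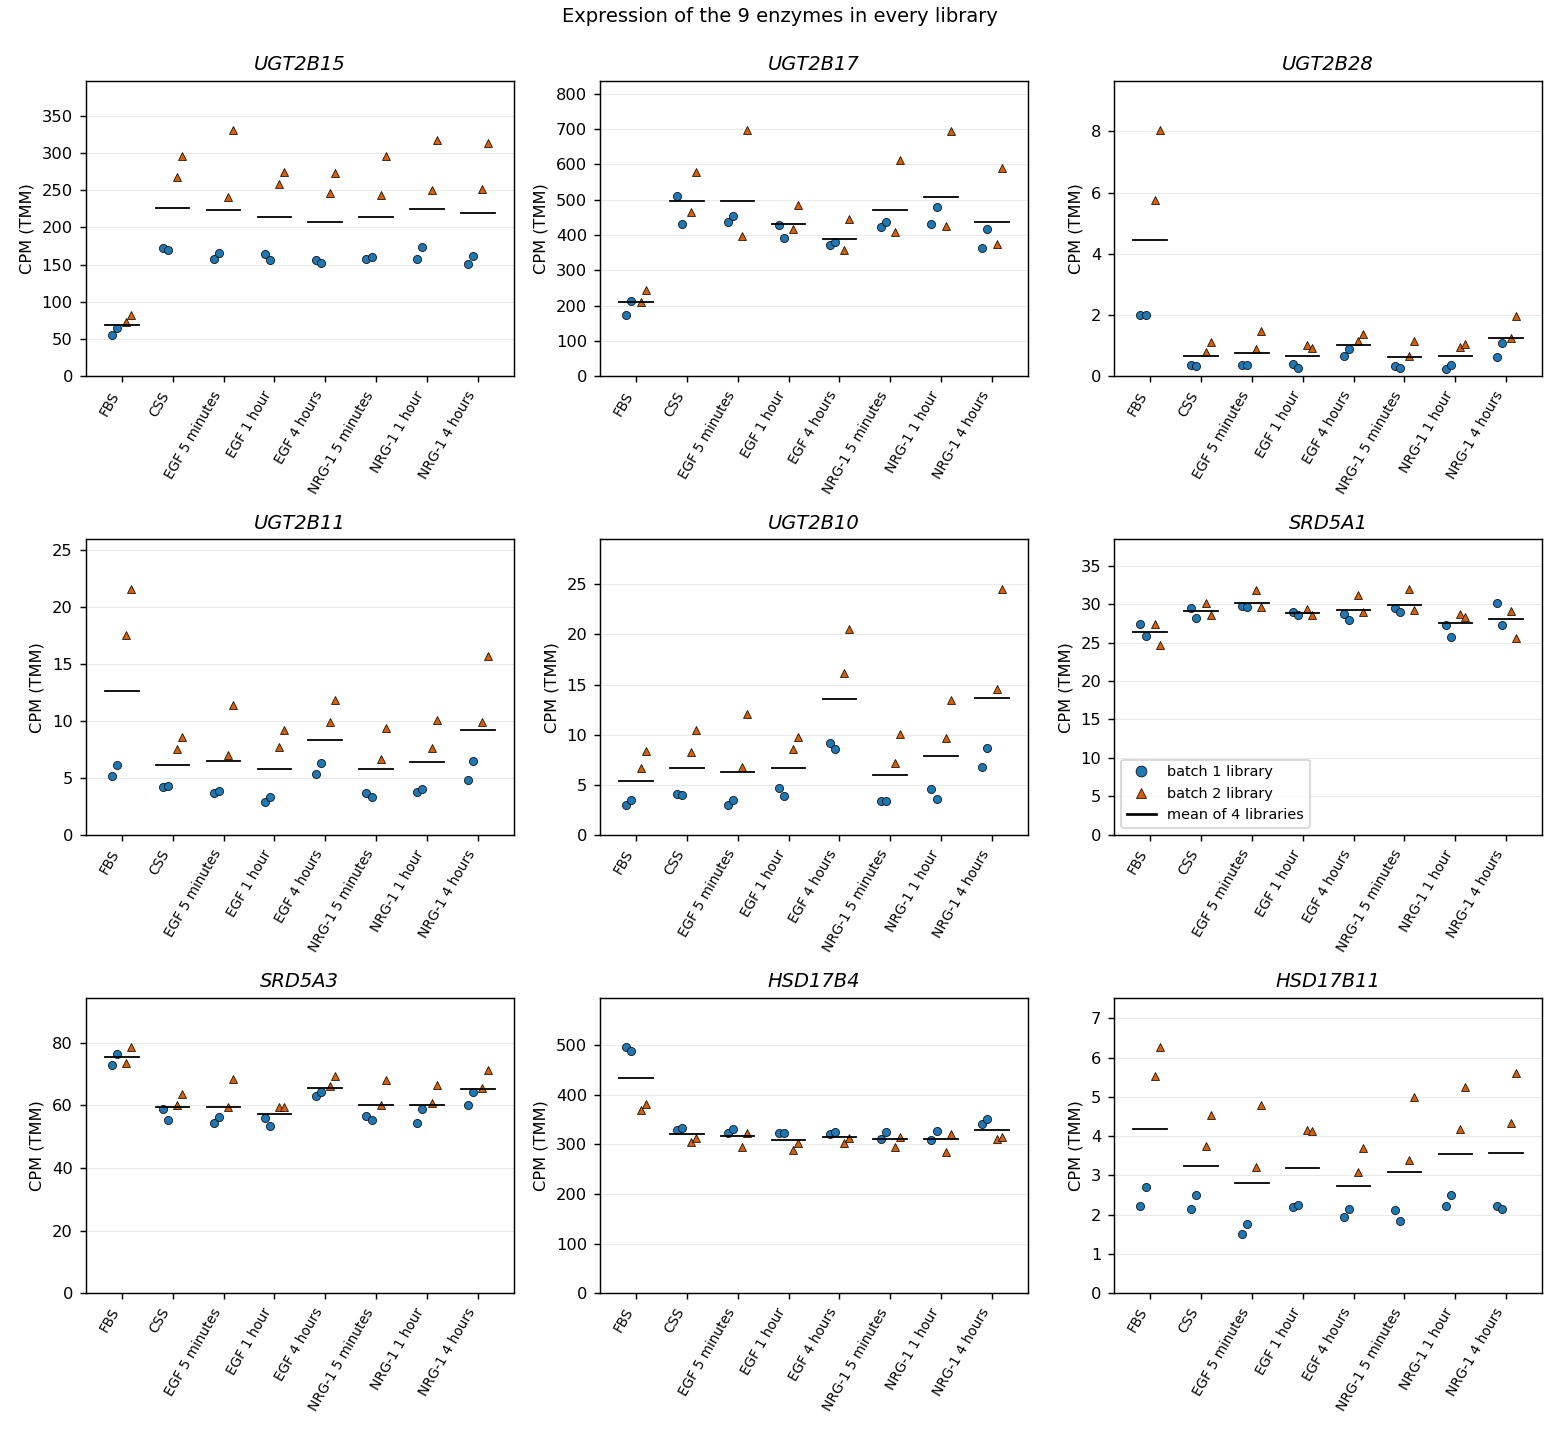
CPM after TMM scaling (linear axes from 0) of the 9 enzymes in the 8 groups, with circles for batch 1 libraries, triangles for batch 2 libraries, and bars for the mean of 4 libraries. *UGT2B15* and *UGT2B17* are lowest in FBS, *UGT2B28* is highest in FBS, *UGT2B10* is highest after 4 hours of EGF or NRG-1, and batch 2 libraries of *UGT2B10*, *UGT2B11*, *UGT2B15*, *UGT2B28*, and *HSD17B11* lie above those of batch 1 in every group.

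The comparison of FBS with CSS asked how the enzymes differ between complete serum and serum stripped of steroids. The most abundant conjugating enzymes, *UGT2B15* and *UGT2B17*, were lower in FBS, whereas the scarce *UGT2B28* and *UGT2B11* were higher. *SRD5A3* and *HSD17B4* were also higher and *SRD5A1* was slightly lower. In all, 7 of 9 members passed an adjusted P value of 0.05 in the quasi-likelihood test of edgeR with a batch term, 4 higher and 3 lower in FBS. The share of all tested genes that passed was 52.7%, so that 7 of 9 is not far from the background. The median log2 fold change was 0.32 over the members and -0.01 over all genes tested. A further limit of 1 on the absolute log2 fold change defined differentially expressed genes (DEGs), which *UGT2B15*, *UGT2B17*, and *UGT2B28* met, against 8.71% of all genes.

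*UGT2B15*, which conjugates dihydrotestosterone and androstanediol, had 55.7, 65.3, 73.4, and 81.9 CPM in the FBS libraries and 172, 170, 267, and 295 CPM in the CSS libraries, in the order of replicates 1 to 4. The groups did not overlap, and the highest FBS library lay far below the lowest CSS library. FBS against CSS gave -1.67 ± 0.10 on the log2 scale (SE; 0.315-fold; adjusted P = 6.03e-14). Batch 1 alone gave -1.50 and batch 2 alone gave -1.85.

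*UGT2B17*, the most active of the family on testosterone and dihydrotestosterone, showed a similar fall. It had 173, 214, 211, and 243 CPM in FBS and 510, 430, 466, and 579 CPM in CSS. Again no FBS library reached a CSS library. On the log2 scale *UGT2B17* differed by -1.24 ± 0.16 (adjusted P = 1.35e-07), with -1.28 in batch 1 and -1.20 in batch 2.

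*UGT2B28*, a close relative that also accepts androgens, went the opposite way. Its 4 FBS libraries had 2.00, 2.01, 5.77, and 8.03 CPM, and the CSS libraries had 0.375, 0.344, 0.797, and 1.11 CPM. Every FBS library was above every CSS library, and the ratio within each batch was large although the batches stood apart. *UGT2B28* rose by 2.69 ± 0.23 on the log2 scale (SE; 6.46-fold; adjusted P = 7.88e-11), with 2.47 in batch 1 and 2.86 in batch 2.

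*UGT2B11*, which has little known activity on androgens, had 5.13, 6.08, 17.5, and 21.6 CPM in FBS and 4.22, 4.30, 7.49, and 8.59 CPM in CSS. The groups overlapped across batches but not within either batch. *UGT2B11* rose by 0.88 ± 0.18 (adjusted P = 0.000112), and its log2 fold change was 0.39 in batch 1 and 1.29 in batch 2. Without a batch term the adjusted P value was 0.0924. For *UGT2B10*, known for attaching glucuronic acid to nitrogen atoms of drugs and nicotine, the log2 fold change was -0.31 ± 0.18 (adjusted P = 0.138). It was lower in FBS in 4 of 4 same-numbered pairs, and with the replicate block in place of the batch term the adjusted P value was 0.0176. With limma on log2(TPM + 1), where the median gene was shifted by -0.19, *UGT2B10* had -0.38 (adjusted P = 0.00246).

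Because the members share reads, their counts were also summed. The sum of *UGT2B15* and *UGT2B17* had a log2 fold change of -1.37 ± 0.13 in FBS against CSS, and the sum of *UGT2B10*, *UGT2B11*, and *UGT2B28* had 0.63 ± 0.16, so the opposite directions did not depend on how reads were split within each of these subgroups. No P value was taken from the sums. In TPM, *UGT2B15* and *UGT2B17* together fell from 629 ± 61.6 in CSS to 214 ± 10.9 in FBS (SD, n = 4), while the other 3 genes together had 12.0 ± 4.52 in CSS and 18.9 ± 10.3 in FBS.

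**Figure D2:**
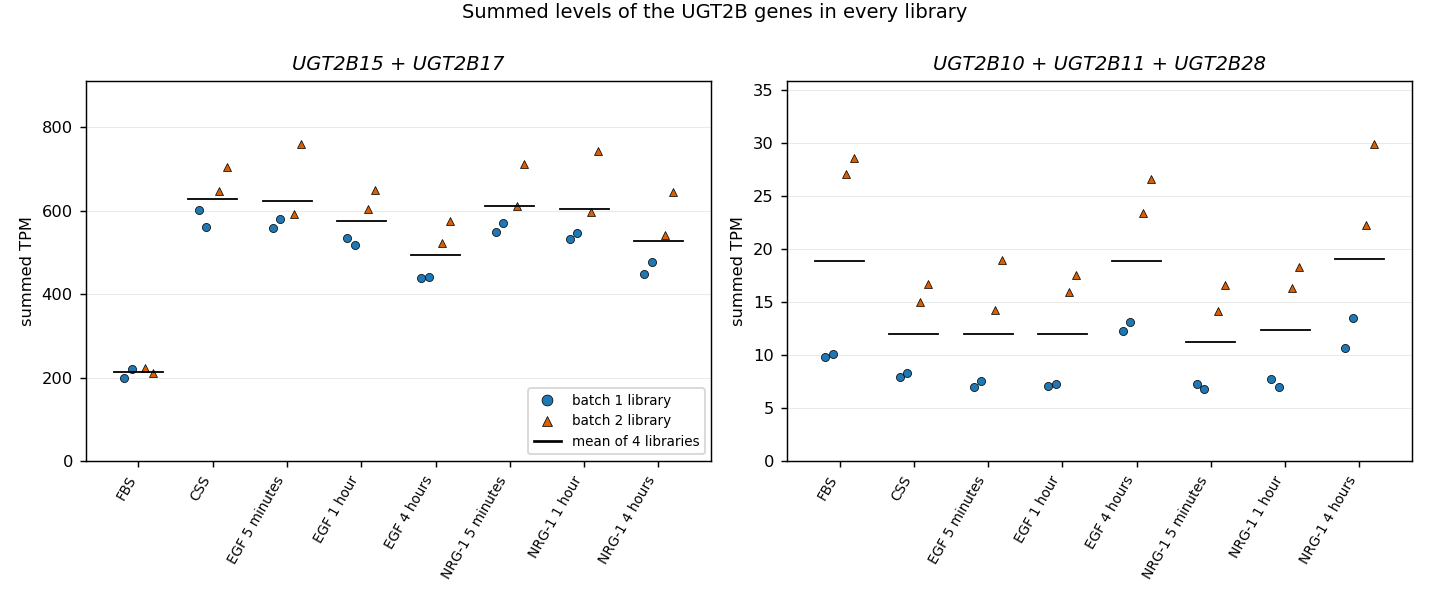
Summed TPM (linear axes from 0) of *UGT2B15* and *UGT2B17* on the left and of *UGT2B10*, *UGT2B11*, and *UGT2B28* on the right in each group, with circles for batch 1, triangles for batch 2, and bars for the mean of 4 libraries. The left sum is 214 TPM in FBS and 629 TPM in CSS, and the right sum is 18.9 TPM in FBS, 18.9 TPM after 4 hours of EGF, and 19.1 TPM after 4 hours of NRG-1 against 12.0 TPM in CSS.

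Among the enzymes of reduction, *SRD5A1*, which produces dihydrotestosterone, had 27.4, 25.9, 27.5, and 24.7 CPM in FBS and 29.6, 28.2, 30.1, and 28.6 CPM in CSS. The groups did not overlap, but the gap was small next to the levels. *SRD5A1* differed by -0.14 ± 0.05 (adjusted P = 0.0194), and the call was lost when only the 2 groups were fitted, when CSS replicate 1, CSS replicate 3, or FBS replicate 4 was left out, and within either batch (adjusted P = 0.0546 to 0.206). *SRD5A3*, which reduces polyprenol to dolichol for protein N-glycosylation, had 73.0, 76.4, 73.7, and 78.6 CPM in FBS and 58.8, 55.5, 60.2, and 63.6 CPM in CSS. Its FBS libraries were all above its CSS libraries. *SRD5A3* rose by 0.34 ± 0.05 on the log2 scale (adjusted P = 2.98e-06), with 0.39 in batch 1 and 0.30 in batch 2, and by 0.14 with limma on log2(TPM + 1) (adjusted P = 0.0239).

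Of the dehydrogenases, *HSD17B4*, a peroxisomal enzyme of fatty acid oxidation that also inactivates estradiol, had 496, 488, 370, and 381 CPM in FBS and 329, 334, 306, and 313 CPM in CSS. No library of the groups overlapped, and the rise was larger in batch 1 than in batch 2. *HSD17B4* rose by 0.43 ± 0.06 on the log2 scale (adjusted P = 2.14e-07), with 0.57 in batch 1 and 0.28 in batch 2. *HSD17B11*, a lipid droplet enzyme that oxidizes androstanediol, had a log2 fold change of 0.32 ± 0.14 (adjusted P = 0.0572), with 0.09 in batch 1 and 0.51 in batch 2. Its adjusted P value was 0.00819 with the replicate block, 0.0452 in DESeq2, 0.0234 without FBS replicate 1, and 0.0341 without CSS replicate 2.

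The next comparisons asked whether EGF or NRG-1 changed the enzymes in CSS medium, and when. No member passed the test after 5 minutes or after 1 hour of either ligand, and 4 of 9 were higher after 4 hours of each, namely *UGT2B10*, *UGT2B11*, *UGT2B28*, and *SRD5A3*. After 5 minutes, 0 of 9 were called with EGF against 0.00588% of all genes, and 0 of 9 with NRG-1 against 0% of all genes. After 1 hour, 0 of 9 were called with EGF against 9.51% of all genes, and 0 of 9 with NRG-1 against 6.73%. DESeq2 also called 0 members in each of these 4 comparisons, and 0 members had an unadjusted P value under 0.05. The member log2 fold changes at these times lay between -0.25 and 0.21. The groups given a ligand were all compared with the same CSS libraries.

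**Figure D3:**
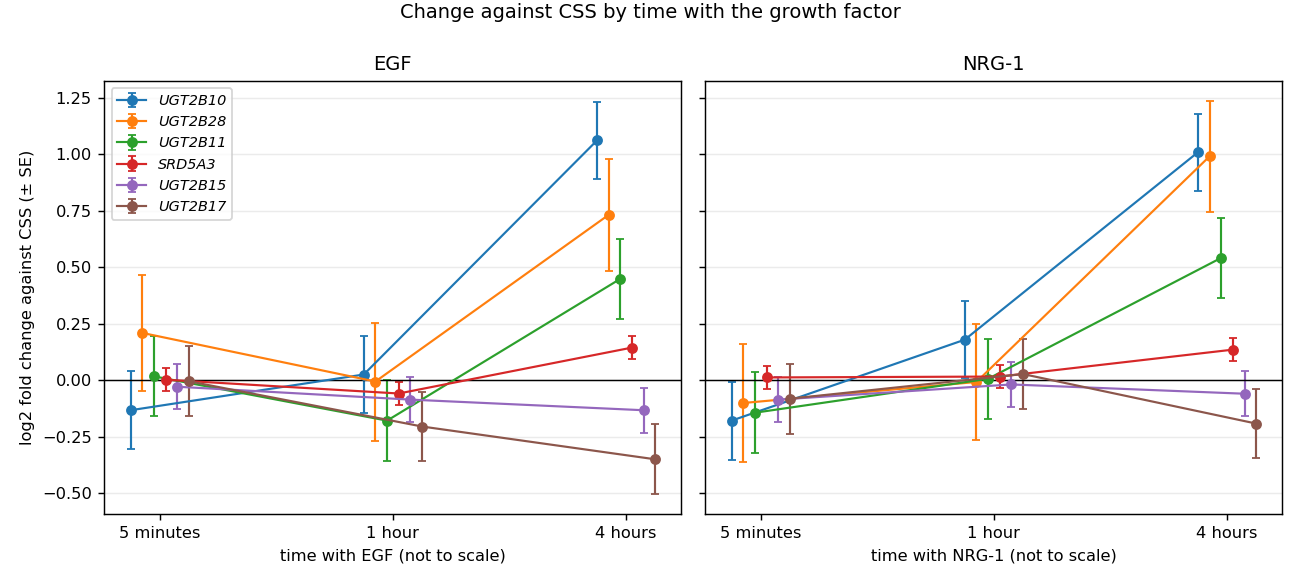
Log2 fold change against CSS (± SE, edgeR fit of all 32 libraries) of *UGT2B10*, *UGT2B28*, *UGT2B11*, *SRD5A3*, *UGT2B15*, and *UGT2B17* after 5 minutes, 1 hour, and 4 hours of EGF (left) or NRG-1 (right), with times spaced evenly. *UGT2B10*, *UGT2B28*, and *UGT2B11* pass the test only at 4 hours with both ligands, with *UGT2B10* at 1.06 for EGF and 1.01 for NRG-1.

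After 4 hours, the 4 members called with EGF compared with 49.2% of all genes called in either direction and 24.6% called higher, and the 4 called with NRG-1 compared with 42.6% and 21.6%. No member was called lower. *UGT2B10* was the only DEG of the set with each ligand, against 9.56% of all genes with EGF and 7.41% with NRG-1, which is also near the background. Both sets of calls share the CSS libraries.

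*UGT2B10* had 9.13, 8.61, 16.1, and 20.5 CPM after 4 hours of EGF and 6.77, 8.65, 14.6, and 24.6 CPM after 4 hours of NRG-1. The CSS libraries had 4.09, 3.92, 8.27, and 10.5 CPM. Treated libraries of batch 1 overlapped CSS libraries of batch 2, but within each batch every treated library was above every CSS library. The log2 fold change was 1.06 ± 0.17 with EGF (adjusted P = 5.93e-06), with 1.14 in batch 1 and 0.99 in batch 2. The corresponding NRG-1 value was 1.01 ± 0.17 (adjusted P = 1.64e-05), with 0.94 in batch 1 and 1.08 in batch 2, and with the replicate block it was 0.99, just under the DEG limit. Without a batch term no member was called with either ligand, and the adjusted P values of *UGT2B10* were 0.112 for EGF (log2 fold change 1.02) and 0.126 for NRG-1 (1.02).

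*UGT2B28* had 0.656, 0.877, 1.15, and 1.38 CPM with EGF and 0.641, 1.10, 1.24, and 1.98 CPM with NRG-1 for 4 hours. It was above CSS in 4 of 4 same-numbered pairs with each ligand and remained below FBS. *UGT2B28* rose by 0.73 ± 0.25 with EGF (adjusted P = 0.0159) and by 0.99 ± 0.25 with NRG-1 (adjusted P = 0.00163) on the log2 scale. Batch 1 gave 1.10 and 1.26, and batch 2 gave 0.43 and 0.77. Without EGF replicate 2 of 4 hours the EGF value was 0.53 (adjusted P = 0.0924), without CSS replicate 3 it was 0.63 (adjusted P = 0.0645), and limma on log2(TPM + 1) gave 0.27 (adjusted P = 0.0536).

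*UGT2B11* had 5.33, 6.32, 9.86, and 11.8 CPM with EGF and 4.79, 6.49, 9.86, and 15.7 CPM with NRG-1 for 4 hours. Each was above its same-numbered CSS library. *UGT2B11* rose by 0.45 ± 0.18 with EGF (adjusted P = 0.0358; 0.45 in batch 1 and 0.46 in batch 2) and by 0.54 ± 0.18 with NRG-1 (adjusted P = 0.0136; 0.40 and 0.68). These calls were the least stable of the 3 UGT2B genes. The EGF call was lost without any one of EGF replicate 1, 2, or 4 or CSS replicate 3 or 4 (adjusted P = 0.0506 to 0.146), and the NRG-1 call was lost without NRG-1 replicate 2 or 4 or CSS replicate 3 (adjusted P = 0.0576 to 0.0815).

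*UGT2B15* and *UGT2B17*, which made up most of the UGT2B level, did not pass the test. By summed counts they had -0.28 ± 0.13 with EGF and -0.15 ± 0.13 with NRG-1 on the log2 scale, and the other 3 genes had 0.79 ± 0.16 and 0.81 ± 0.16. *UGT2B15* had 156, 153, 246, and 273 CPM with EGF and 151, 162, 251, and 314 CPM with NRG-1, and its log2 fold changes were -0.13 (95% interval -0.33 to 0.06) and -0.06 (-0.25 to 0.13). *UGT2B17* had 373, 380, 357, and 445 CPM with EGF and 364, 416, 375, and 589 CPM with NRG-1. Its log2 fold change was -0.35 ± 0.15 with EGF (adjusted P = 0.0612), lower in 4 of 4 pairs (adjusted P = 0.042 without CSS replicate 3), and -0.19 ± 0.15 with NRG-1 (adjusted P = 0.342), lower in 3 of 4. With the replicate block the adjusted P values of *UGT2B17* were 0.000555 and 0.0357, and with limma on log2(TPM + 1) they were 0.000508 and 0.0102, so these calls turned on the model and the scale. On that TPM scale *UGT2B15* (-0.20, adjusted P = 0.0312) and *HSD17B11* (-0.22, adjusted P = 0.0102) were also called lower with EGF, where the median gene was shifted by -0.08. In edgeR with only the EGF and CSS libraries fitted, *UGT2B15* (-0.13, adjusted P = 0.0445) and *UGT2B17* (-0.35, adjusted P = 0.00567) were called lower too.

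*SRD5A3* had 63.1, 64.2, 66.3, and 69.3 CPM with EGF and 60.2, 64.3, 65.5, and 71.4 CPM with NRG-1. Its changes of 0.14 ± 0.05 (adjusted P = 0.0239) and 0.14 ± 0.05 (adjusted P = 0.0394) on the log2 scale were small. With limma on log2(TPM + 1), the log2 fold changes were 0.07 (adjusted P = 0.285) and 0.03 (adjusted P = 0.638), so the calls depended on the scale. In TPM the median gene was shifted by -0.08 with EGF and -0.09 with NRG-1. The EGF call was lost without EGF replicate 2, CSS replicate 2, or CSS replicate 3 (adjusted P = 0.0632 to 0.0717). The NRG-1 call was lost without NRG-1 replicate 2 or 4 or CSS replicate 2 or 3 (adjusted P = 0.0964 to 0.141). In edgeR it was also lost with no filter on low counts (adjusted P = 0.0757) and with only the 2 groups fitted (adjusted P = 0.0921). The same held in batch 1 alone (adjusted P = 0.116) and batch 2 alone (adjusted P = 0.355).

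*SRD5A1*, *HSD17B4*, and *HSD17B11* gave log2 fold changes of 0.00 (95% interval -0.10 to 0.10), -0.02 (-0.13 to 0.09), and -0.23 (-0.51 to 0.05) with EGF. Under NRG-1 these genes had -0.05 (-0.15 to 0.05), 0.04 (-0.07 to 0.15), and 0.11 (-0.17 to 0.38). None of these 6 values passed the test.

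**Figure D4:**
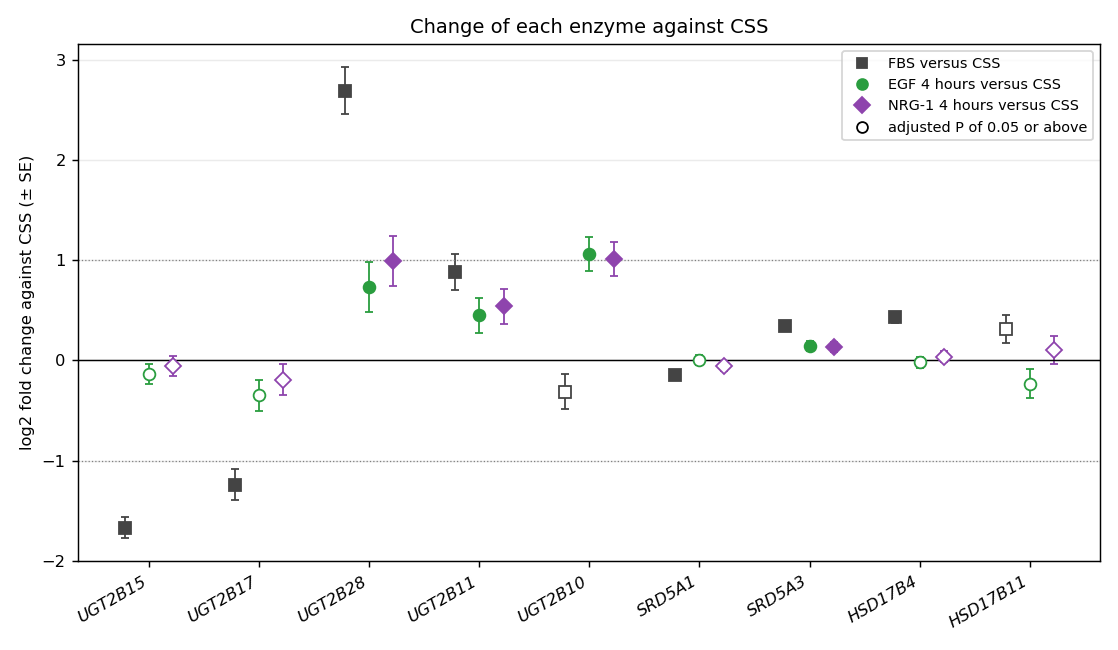
Log2 fold change against CSS (± SE) of the 9 enzymes in FBS (squares) and after 4 hours of EGF (circles) or NRG-1 (diamonds), filled where the adjusted P value was below 0.05 and open otherwise, with dotted lines at -1 and 1. *UGT2B15* and *UGT2B17* lie below -1 in FBS only, *UGT2B28* lies at 2.69 in FBS, and *UGT2B10* lies at 1.06 and 1.01 with the ligands.

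The step from 1 hour to 4 hours was tested directly. With EGF, *UGT2B10* (1.03), *UGT2B28* (0.74), *UGT2B11* (0.63), and *SRD5A3* (0.20) were higher at 4 hours on the log2 scale, that is, 4 of 9 members against 44% of all genes. With NRG-1, *UGT2B28* (1.00), *UGT2B10* (0.83), and *UGT2B11* (0.54) were higher, that is, 3 of 9 against 37.5% of all genes. Neither count is far from the share of all genes. *UGT2B11* lost this NRG-1 call without NRG-1 replicate 2 or 4 of 4 hours or replicate 3 of 1 hour (adjusted P = 0.0661 to 0.0942). *UGT2B28* lost its EGF call without EGF replicate 2 of 4 hours (0.53, adjusted P = 0.101). *SRD5A3* with NRG-1 had 0.12 (adjusted P = 0.0773), and 0.16 without NRG-1 replicate 4 of 1 hour (adjusted P = 0.0216). Its call with EGF was lost with limma on log2(TPM + 1) (0.09, adjusted P = 0.183), which also called *UGT2B17* (-0.26, adjusted P = 0.0269) and *HSD17B11* (-0.23, adjusted P = 0.00828) lower with EGF and *UGT2B17* lower with NRG-1 (-0.25, adjusted P = 0.0408). In TPM the median gene was shifted by -0.09 with EGF and -0.03 with NRG-1 between these times. With the replicate block 5 members were called with NRG-1, which added *SRD5A3* (log2 fold change 0.12, adjusted P = 0.0194) and, in the lower direction, *UGT2B17* (-0.22, adjusted P = 0.0315).

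EGF and NRG-1 were compared with each other at each time. At 5 minutes 0 of 9 members were called against 0% of all genes, at 1 hour 0 of 9 against 1.06%, and at 4 hours 0 of 9 against 1.66%. DESeq2 called 0 at each time, and 1 member had an unadjusted P value under 0.05, which was *HSD17B11* at 4 hours (log2 fold change -0.34 ± 0.14, unadjusted P = 0.025, adjusted P = 0.325). For *UGT2B10* at 4 hours the difference of EGF from NRG-1 was 0.05 with a 95% interval of -0.27 to 0.38, and for *UGT2B28* it was -0.26 (-0.72 to 0.20), so that these intervals hold differences in either direction.

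The 4-hour groups were also set against FBS. With EGF, 9 of 9 members were called (4 higher and 5 lower) against 62.4% of all genes, and with NRG-1, 6 of 9 were called against 57.2%. *UGT2B15* was higher than in FBS by 1.54 with EGF and 1.61 with NRG-1 on the log2 scale, and *UGT2B17* by 0.89 and 1.05. *UGT2B28* was lower by log2 fold changes of -1.96 and -1.70. *UGT2B10* was higher than in FBS, by 1.37 ± 0.17 with EGF (adjusted P = 7.56e-08) and 1.32 ± 0.17 with NRG-1 (adjusted P = 1.76e-07). *UGT2B11* had -0.43 with EGF (adjusted P = 0.0303), but 0.06 in batch 1 and -0.83 in batch 2, and the call was lost without FBS replicate 3 or 4 or EGF replicate 3 or 4 (adjusted P = 0.0604 to 0.208). *SRD5A1* with EGF had 0.15 (adjusted P = 0.0136), which was lost without EGF replicate 3 (0.12, adjusted P = 0.0636). With NRG-1, *UGT2B11* had -0.34 (adjusted P = 0.0925, and 0.0121 with the replicate block), and *SRD5A1* had 0.09 (adjusted P = 0.133, and 0.0453 with the block). Without NRG-1 replicate 4 these became -0.47 (adjusted P = 0.0378) and 0.13 (adjusted P = 0.0157), and without FBS replicate 1 *UGT2B11* had -0.47 (adjusted P = 0.0234).

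The ratio of *UGT2B15* to *UGT2B17* in TPM describes the balance of the 2 abundant paralogs. It was 0.293, 0.278, 0.316, and 0.306 in FBS and 0.308, 0.36, 0.522, and 0.465 in CSS. The FBS libraries were alike across batches, whereas in CSS the ratio was higher in batch 2. The difference in mean log2 ratio was -0.44 (exact two-sided permutation test, P = 0.0571, adjusted P = 0.229 over 4 comparisons, n = 4 per group, smallest possible P = 0.0286). It was -0.22 in batch 1 and -0.66 in batch 2. The ratio after 4 hours differed from CSS by 0.22 with EGF and 0.14 with NRG-1, and EGF differed from NRG-1 by 0.08, with two-sided exact permutation P values of 0.429, 0.600, and 0.743 (n = 4 per group). These tests did not account for batch. With batch means subtracted, the permutation P value was 0.0286 for FBS against CSS (lower in 4 of 4 pairs). It was 0.0286 for EGF against CSS (higher in 4 of 4 pairs), 0.2 for NRG-1 against CSS, and 0.457 for EGF against NRG-1 (n = 4 per group). These permutations mixed libraries across batches and were not adjusted over the 4 comparisons, so the P values are approximate. A permutation within batches was not run.

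The batches stood apart for most members, and this difference was examined after it was seen. In the batch term of the fit, 8 of 9 members passed the test against 55.6% of all genes. *UGT2B28* (1.39 ± 0.12), *UGT2B10* (1.29 ± 0.09), *UGT2B11* (1.24 ± 0.09), and *HSD17B11* (1.03 ± 0.07) were higher in batch 2 by log2 fold changes above 1, and *UGT2B15* by 0.72 ± 0.05. *UGT2B17* (0.22), *SRD5A3* (0.13), and *HSD17B4* (-0.13) differed less, and *SRD5A1* had 0.03 (adjusted P = 0.328). In absolute size the batch term was thus larger than any ligand effect against CSS for *UGT2B10*, *UGT2B11*, *UGT2B28*, *UGT2B15*, *HSD17B11*, and *HSD17B4*. The labels give a batch number and do not say what differed between the batches.

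Whether the effects differed between batches was tested as well. None of the 9 members passed for FBS against CSS (0.0824% of all genes passed), for EGF at 4 hours against CSS (0.141%), or for NRG-1 at 4 hours against CSS (0.0883%). DESeq2 was not run for these terms. For FBS, *UGT2B11* (difference 0.89, unadjusted P = 0.0139, adjusted P = 0.575) and *HSD17B4* (difference -0.29, unadjusted P = 0.00356, adjusted P = 0.406) were the 2 members with an unadjusted P value under 0.05, and 0 members had one for either ligand.

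**Figure D5:**
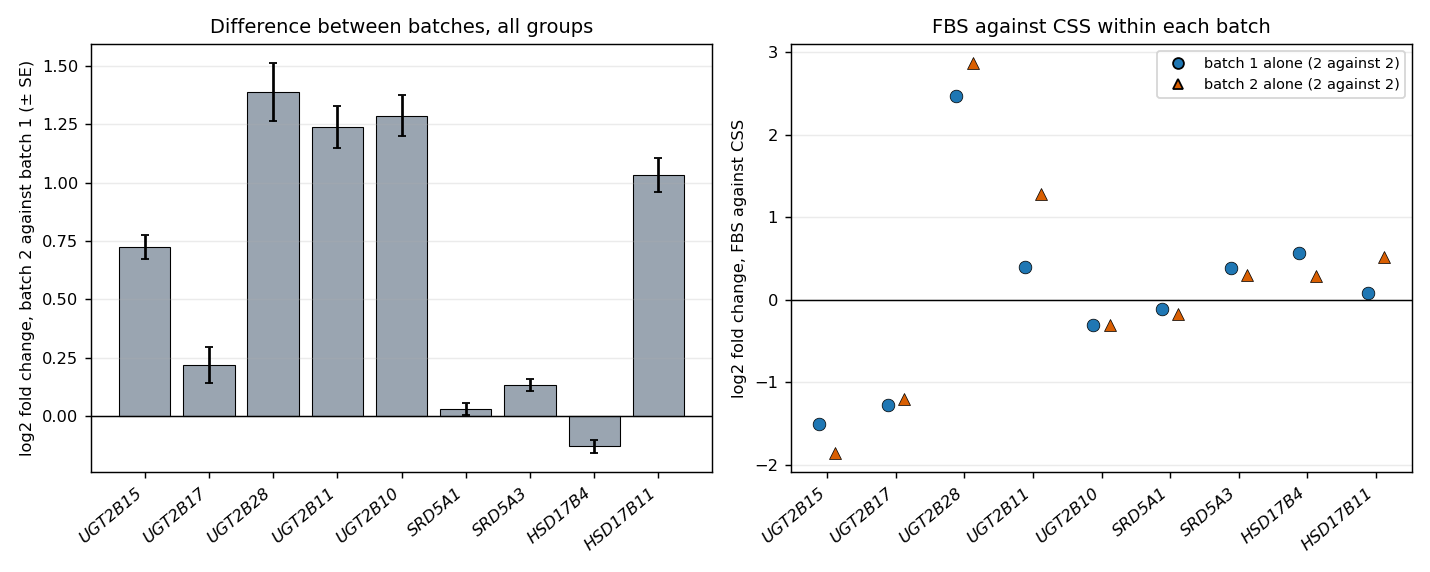
Left, log2 fold change of batch 2 against batch 1 over all groups (bars from 0, ± SE) for each enzyme. Right, log2 fold change of FBS against CSS fitted in batch 1 alone (circles) and in batch 2 alone (triangles), 2 libraries against 2 in each. The batches differ by more than 1 for *UGT2B28*, *UGT2B10*, *UGT2B11*, and *HSD17B11*, and the FBS effect has the same sign in both batches for all 9 genes.

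Other genes of the pathway were examined in 7 lists with 63 genes, of which 45 were tested. In FBS 10 were higher and 8 lower, against 52.7% of all genes called in either direction. With EGF for 4 hours 8 were higher and 6 lower, against 49.2%. With NRG-1 for 4 hours 8 were higher and 5 lower, against 42.6%. In each comparison the called share of the 45 was below that of all genes. The same shares of all genes stand beside the counts of the single lists below. Of 5 tested regulators of UGT2B genes and androgen signaling, 3 were lower in FBS, 1 was higher and 1 lower with EGF, and 1 was higher and 2 were lower with NRG-1.

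Of 6 tested genes that supply UDP-glucuronate or export or hydrolyze glucuronides, 3 were higher in FBS, 2 were higher and 1 lower with EGF, and 2 were higher and 1 lower with NRG-1. *UGDH*, which makes UDP-glucuronate, was already higher after 1 hour of EGF (0.52, adjusted P = 1.05e-07) and of NRG-1 (0.41, adjusted P = 1.33e-05). At 4 hours it was higher by 1.03 ± 0.06 with EGF (adjusted P = 2.1e-14) and 0.80 ± 0.06 with NRG-1 (adjusted P = 7.4e-12) on the log2 scale, and had -0.06 in FBS (adjusted P = 0.431). Its level was 40.9 ± 4.72 TPM in CSS and 79.0 ± 4.47 TPM with EGF for 4 hours. The exporter *ABCC1* was higher by 1.12 with EGF, 0.89 with NRG-1, and 0.32 in FBS (adjusted P = 0.0212). The exporter *ABCC4* was higher by 1.40 ± 0.07 in FBS (adjusted P = 1.72e-16) and lower with EGF (-0.24, adjusted P = 0.00302), and had -0.06 with NRG-1 (adjusted P = 0.493).

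Among 10 tested glucuronosyltransferases outside the set, 2 were higher and 1 lower in FBS and 2 were higher with each ligand. None of 3 tested reductases was called in any of the 3 comparisons. *AKR1C3*, which makes testosterone from androstenedione, was one of them, with -0.13 in FBS (adjusted P = 0.622), -0.36 with EGF (adjusted P = 0.169), and -0.35 with NRG-1 (adjusted P = 0.205). Among 10 other hydroxysteroid dehydrogenases, 3 were higher and 2 lower in FBS, 2 were lower with EGF, and 1 was lower with NRG-1. *HSD17B10*, a mitochondrial member of that family, was higher by 0.18 in FBS (adjusted P = 0.0205). Of 7 tested genes of androgen synthesis, 2 were higher in FBS, 2 were higher and 1 lower with EGF, and 1 was higher with NRG-1. *CYP11A1*, which cleaves the side chain of cholesterol, was higher in FBS by 2.95 ± 0.20 (adjusted P = 3.75e-13), from 0.33 ± 0.102 TPM in CSS to 2.22 ± 0.447 TPM. Of 4 tested sulfation genes, 2 were lower in FBS, 1 was higher and 1 lower with EGF, and 2 were higher and 1 lower with NRG-1.

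Genes with the most similar pattern were found over all 32 libraries among 12018 genes whose log2 CPM averaged 1 or more, once batch means had been removed. The likeness is Pearson's r of log2 CPM across libraries that share groups and controls, and is given as a description. The closest gene was *TP53INP1* for *UGT2B15* (0.983), *NIPSNAP3A* for *UGT2B17* (0.983), *BZW1* for *UGT2B10* (0.968), and *FAM96A* for *UGT2B11* (0.945). After these came *CDK8* and *LRRTM3* for *UGT2B15*, *BTD* and *BCHE* for *UGT2B17*, *RGS17* and *RP2* for *UGT2B10*, and *AIMP1* and *NDFIP2* for *UGT2B11*. For the other members it was *SFXN1* for *SRD5A3* (0.967), *DLAT* for *HSD17B4* (0.958), *RAB3GAP1* for *SRD5A1* (0.879), and *DYRK4* for *HSD17B11* (0.853). They were followed by *ALG8* and *SHQ1* for *SRD5A3*, *PTGR1* and *ISOC1* for *HSD17B4*, *SPG11* and *DDB1* for *SRD5A1*, and *ANAPC10* and *MOSPD1* for *HSD17B11*. *UGT2B28* was too low for this ranking.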

How the data were processed

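Expected counts and TPM of 32 LNCaP libraries (8 groups of 4) were used. Reads were trimmed by the authors (Trimmomatic 0.36), aligned with STAR 2.7.0f, and quantified per gene with RSEM in stranded mode; the submitters' processing notes name hg19. They deposited expected counts per gene, not normalized for library size, and TPM values per gene, normalized for transcript length and library total. Replicates were not pooled, and groups and batches came from the sample labels.

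After rounding the expected counts, genes that reached 5 counts in 3 or more libraries entered edgeR 4.0.16 (R 4.3.3) with the quasi-likelihood test, TMM normalization, and terms for group and batch, over all libraries. Benjamini-Hochberg adjustment ran over 16995 genes within each of 14 comparisons. CPM values were computed from these counts and TMM factors. Between 63822654 and 92401724 counts per library make counting error small for the abundant members, so the spread between libraries sets their precision. Counting error matters most for *UGT2B28*. It also adds to the spread of *HSD17B11*, *UGT2B10*, and *UGT2B11*, which had as few as 107, 212, and 231 counts in a library. The ratio of *UGT2B15* to *UGT2B17* was compared by exact permutation. Intervals of 95% were taken from the SE.

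The members, the lists of other genes, the rule for naming genes, and the alternatives were chosen with earlier results of these data known. The rule named all 9 members, *UGDH*, *AKR1C3*, and *HSD17B10*, up to 3 DEGs per list and direction with a mean TPM of at least 1 in FBS or after 4 hours of a ligand against CSS, and the closest genes by correlation. An item of the lists and a motif are not reported here. Markers outside the rule were chosen after their values were seen. Same-numbered libraries of different groups deviated together in 112 of 112 pairs of libraries (r from 0.133 to 0.571). Only group means were removed, and same-numbered libraries share a batch, so batch alone could give this. Whether the numbers pair libraries beyond batch was not tested, and the replicate block takes them as paired. Alternatives were DESeq2 1.42.0, its size factors in edgeR, other filters, no batch term, the replicate block, only 2 groups, each batch alone, limma 3.58.1 on log2 TPM with pseudocounts of 1 or 0.1, summed paralogs, and each library left out. Promoters came from RefSeq (GRCh38.p14), a build other than that of the counts, and transcripts from GENCODE. They were compared with Biopython.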

Additional observations from a re-analysis of the deposited data

Results flagged for a closer look

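Within each gene and group, the highest or lowest of the 4 libraries was compared with the rest by its gap relative to the whole range. Of 72 such sets of CPM values, 3 held a library that stood apart, and chance alone gives about 1 in 20, or 3.6 of 72. That rate takes the 4 libraries as alike and does not account for the 2 batches. *UGT2B17* after 5 minutes of NRG-1 had 612 CPM in replicate 4 against 408.7 to 437.2 CPM in the other libraries. *SRD5A1* had 31.8 CPM in replicate 3 after 5 minutes of EGF against 29.6 to 29.8 CPM, and 32.0 CPM in replicate 3 after 5 minutes of NRG-1 against 29.0 to 29.5 CPM. All 3 libraries belong to batch 2. No member was called in a comparison of the groups of these 3 libraries. These libraries still enter the fit of all 32 libraries, and with it the batch term and the spread behind every main call. For *UGT2B17*, replicate 4 was the highest library in every group. Without being flagged, it had 697 CPM after 5 minutes of EGF against 397 to 454 CPM in the other libraries. After 1 hour of NRG-1 it had 696 CPM against 425 to 481 CPM, and after 4 hours of NRG-1 589 CPM against 364 to 416 CPM.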

How the results depend on the processing

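Over the 9 members, 14 comparisons, and all alternatives, 2377 values stayed called or stayed not called, 95 called values lost their call, 47 values gained one, and 1 was reversed. Values not called in either fit were not counted as reversed. They are among the 2377 even where their sign changed. The reversed value was *UGT2B11* for EGF at 4 hours against FBS, with 0.059 in batch 1 alone. Without a batch term, 0 members were called at 4 hours against CSS with EGF, 0 with NRG-1, 1 for EGF at 4 hours against 1 hour, and 0 for NRG-1 at 4 hours against 1 hour. In batch 2 alone these counts were 1, 1, 1, and 0, with fewer libraries in the fit. With the replicate block, 5 members were called for NRG-1 at 4 hours against 1 hour in place of 3, and 9 for FBS against CSS in place of 7. The block changed no call of a member other than those named in the text. When each library was left out in turn, 6 to 8 members were called for FBS against CSS, 1 to 4 for EGF at 4 hours, and 2 to 4 for NRG-1 at 4 hours against CSS. The counts were 3 to 4 for EGF and 2 to 4 for NRG-1 at 4 hours against 1 hour, and 7 to 9 for EGF and 6 to 8 for NRG-1 at 4 hours against FBS, and 0 in each comparison at 5 minutes or 1 hour and between ligands. For EGF at 4 hours against CSS the count was 1 without EGF replicate 2 and 2 without CSS replicate 3. For NRG-1 it was 2 without NRG-1 replicate 2, NRG-1 replicate 4, or CSS replicate 3, and for NRG-1 at 4 hours against 1 hour it was 2 without replicate 2 or 4 of 4 hours or replicate 3 of 1 hour. For the ratio of *UGT2B15* to *UGT2B17*, subtracting batch means gave approximate permutation P values (unadjusted, labels mixed across batches) of 0.0286 for FBS (difference -0.44) and 0.0286 for EGF at 4 hours (difference 0.22), n = 4 per group. Leaving out 1 library gave differences of -0.57 (without CSS replicate 1, exact permutation P = 0.0286) to -0.32 for FBS, 0.08 to 0.34 for EGF, -0.01 to 0.26 for NRG-1, and -0.06 to 0.23 for EGF against NRG-1. Depth limits *UGT2B28* most, which had as few as 19 counts in a library, and then *HSD17B11*, with as few as 107.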
